A study of Homo sapiens with 4 samples.

Results

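CCL20 is the gene of a CC chemokine, a small secreted protein that attracts immune cells. It was described here in MKN45, an established human line of gastric epithelial cancer cells, after contact with lipopolysaccharide (LPS) of the stomach bacterium Helicobacter pylori, a glycolipid that coats the cell surface of such bacteria. The members were all probe sets that the platform annotation assigns to CCL20 alone, at any level. There was 1 such probe set among 54613 non-control probe sets, 1 gene of the 19775 with a probe set of their own, and no probe set named CCL20 together with another gene. Cells received medium with 10 µg/ml H. pylori LPS (2 arrays) or fresh medium alone (2 arrays, untreated), and total RNA was taken 8 h later. Cells of both groups came from the same unmodified line, grown in serum with antibiotics. The series text speaks of 2 independent experiments but does not tie each array to one of them. Values are log2 levels, so a difference of 1 is a doubling. The number of arrays limits the precision.

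CCL20 binds the receptor CCR6, which is carried by immature dendritic cells, B cells and subsets of T cells. In the gut it is made by the epithelium over lymphoid follicles, and epithelial cells make more of it when they meet bacterial products or inflammatory cytokines. Its transcription is known to depend on nuclear factor kappa B (NF-kB), a family of dimeric transcription factors held in the cytoplasm by inhibitor proteins until a receptor signals.

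CCL20 stood at 8.66 and 8.50 on the LPS arrays, against 5.70 and 5.61 on the untreated arrays. The groups were far apart, and the lowest LPS value exceeded the highest untreated value by 2.80. The mean was 8.58 ± 0.12 in LPS-treated cells and 5.65 ± 0.07 in untreated cells (log2 level, SD, n = 2 each), a log2 difference of 2.93 or 7.61-fold. Over the 4 ways to set an LPS array against an untreated array, the fold ran from 6.95 to 8.32. On the unlogged scale the levels were 406 and 362 with LPS, against 52.0 and 48.8 untreated. CCL20 was chosen by these measured differences, as the chemokine with the strongest response, so its values are a description and no test is given for them. At least 1.5-fold higher were 5 of 19775 genes (0.0253%), CCL20 and 4 CXC chemokines, and 5 (0.0253%) were at least 1.5-fold lower. These counts depended on single arrays: among genes past a level filter there were 9 higher and 19 lower without LPS replicate 1, 9 higher and 23 lower without untreated replicate 2, and 5 or 7 higher and 6 or 7 lower without either of the other arrays. Arrays of whole cultures cannot tell more CCL20 RNA per cell from more cells that make it.

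**Figure D1:**
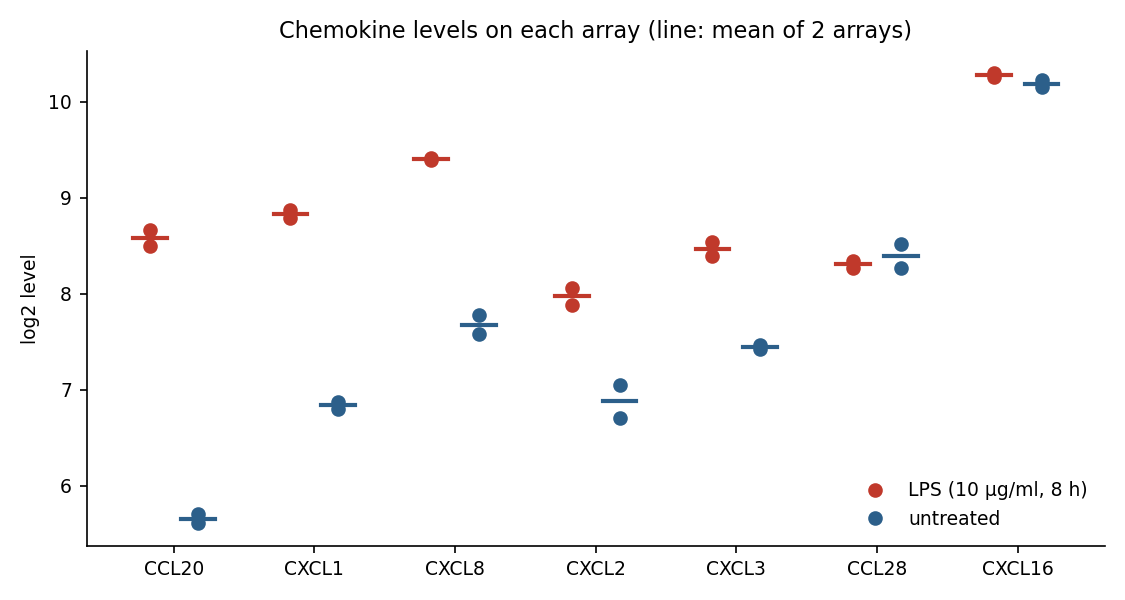
Log2 level (y axis) of CCL20 and 6 other chemokine genes on each array, LPS in red left of untreated in blue, with 1 point per array and a line at the mean of 2 arrays. CCL20 has its LPS points at 8.66 and 8.50 and its untreated points at 5.70 and 5.61, the widest gap between groups among the 7 genes. Heights of different genes are not amounts of RNA that can be compared, because each probe set binds with its own strength.

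The replicate arrays of CCL20 lay close together. The gap was 0.167 within the LPS pair and 0.0924 within the untreated pair. Over all other probe sets the median gap was 0.0834 within the LPS pair and 0.0973 within the untreated pair. The CCL20 gap was thus wider than that of 79.4% of probe sets within the LPS pair and of 48.0% within the untreated pair. Both gaps were small beside the 2.80 that separated the groups at their nearest.

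The signal of CCL20 was in the upper part of all probe sets with LPS and in the lower part without. With LPS it stood at the 76.7 and 74.7 percentiles of the non-control probe sets on the 2 arrays, against the 24.5 and 22.8 percentiles on the untreated arrays. A percentile ranks brightness and not the amount of RNA, since each probe set binds with its own strength. The untreated mean of 5.65 was below 6.06, the 30 percentile of mean levels used as a filter in the tests of other genes. CCL20 passed that filter only through its LPS arrays.

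Probe sets of olfactory receptors, genes of the nasal epithelium, served as a descriptive scale for faint signal. In LPS-treated cells 0 of their 107 probe sets (82 genes) lay above CCL20, the highest being at 8.08. In untreated cells 71 of 107 (66.4%) lay above it, and their middle values ran from 5.18 to 6.95 between the quartiles. The untreated CCL20 signal thus lay within the range of these probe sets. Signal at that level holds a share of unspecific binding whose size was not tested.

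**Figure D2:**
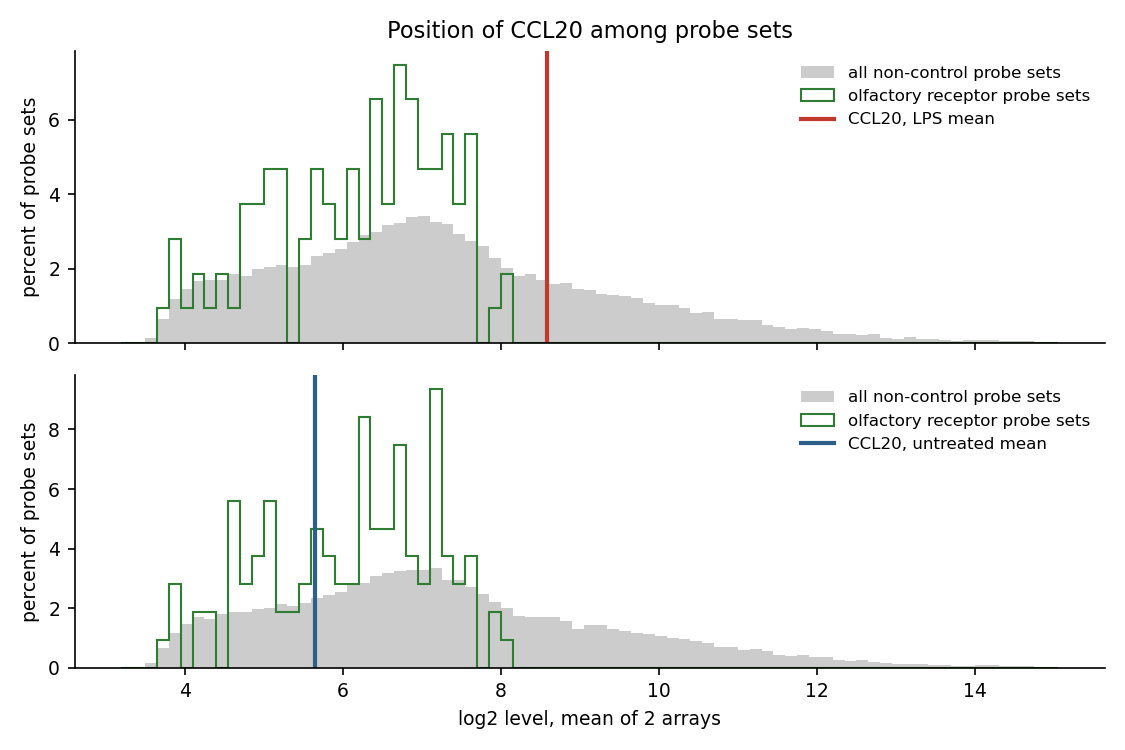
Percent of probe sets (y axis) by log2 level (x axis, mean of 2 arrays), with LPS-treated cells above and untreated cells below. Grey bars are all non-control probe sets, the green outline the 107 olfactory receptor probe sets and the vertical line CCL20. The line stands at 8.58 with LPS, to the right of every olfactory receptor probe set, and at 5.65 untreated, inside their range.

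Other probe sets that began at the CCL20 level did not move in this way. Within 0.1 of its untreated mean lay 1711 other probe sets, and the middle 95% of their log2 differences ran from -0.25 to 0.27, with a median of 0.02. The highest of them, for HOPX, was 0.52, and 0 of the 1711 reached 1. Likewise, of 1229 probe sets within 0.1 of the LPS mean of CCL20, 0 differed by 1 or more upward. Such differences were rare at any level, with 6 among all 54613 probe sets, CCL20 included. Both counts of 0 are near that share and say nothing particular about these levels. The CCL20 difference was the largest of all 54613, followed by CXCL1 at 1.99 and CXCL8 at 1.73. It also held the first rank when the smallest LPS-minus-untreated pair was taken (2.80), under each of 3 other scalings of the arrays (2.91 to 2.93) and without any 1 array (2.84 to 3.01). CCL20 was chosen for its response on these same arrays, so these ranks describe the choice and are no separate support.

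**Figure D3:**
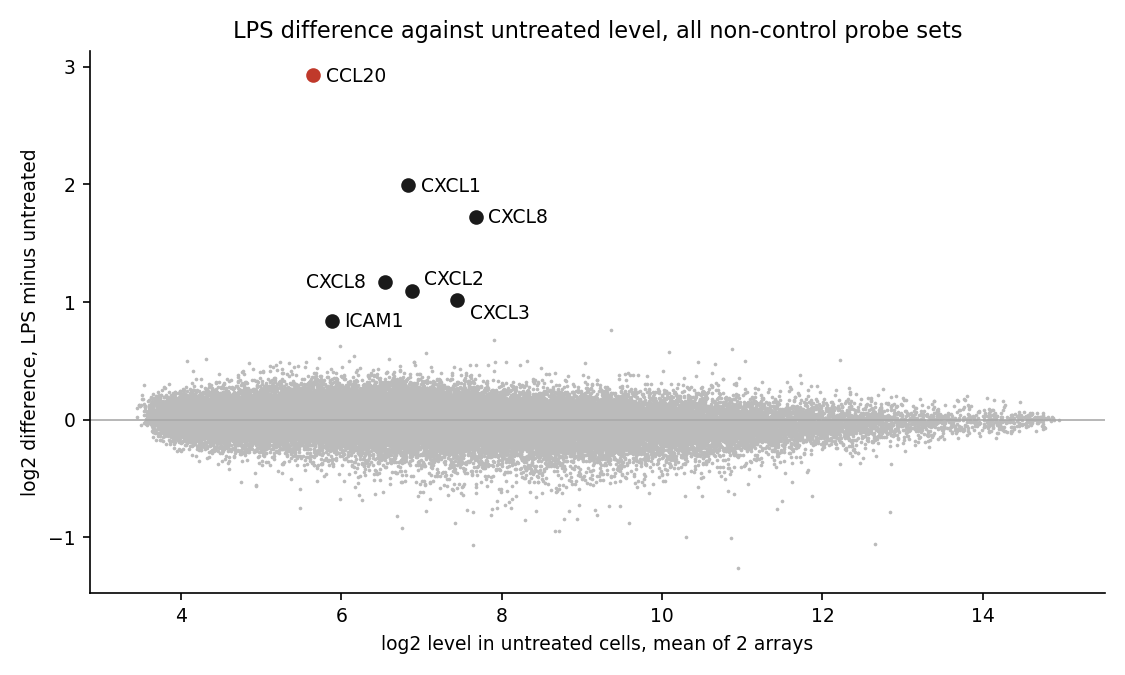
Log2 difference, LPS minus untreated (y axis), against log2 level in untreated cells (x axis) for each of the 54613 non-control probe sets in grey. CCL20 (red) stands at 2.93 above an untreated level of 5.65, and the named black points are the probe sets ranked next, from CXCL1 at 1.99 to ICAM1 at 0.84.

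The nearest in response were CXCL1, CXCL8, CXCL2 and CXCL3, members of the CXC class that attract neutrophils. They were tested with limma over 16252 genes past the level filter, CCL20 included, with Benjamini-Hochberg adjustment. CCL20 was chosen from this contrast and passed the filter only through its LPS arrays. Its place in the adjustment makes the adjusted p of the genes called here smaller, and an adjustment without it was not run. Of the 16251 genes other than CCL20, 0.0185% were called higher and 0% lower at an adjusted p under 0.05. An unadjusted p under 0.05 was reached by 604 genes that were higher (3.72%) and 1286 that were lower (7.91%). Counts of unadjusted p in the lists below cover genes past the filter and are to be read beside these shares. CXCL1 had 8.87 and 8.79 with LPS, against 6.87 and 6.80 untreated, and rose by 1.99 (95% interval 1.81 to 2.18, limma adjusted p = 0.000287). Its groups did not overlap.

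CXCL8, which encodes interleukin 8, had 9.42 and 9.39 with LPS, against 7.77 and 7.58 untreated, and rose by 1.73 (interval 1.51 to 1.94, limma adjusted p = 0.00125). A second CXCL8 probe set stood at 7.69 and 7.74 with LPS, against 6.76 and 6.33 untreated, a difference of 1.17. The first is of the cross-hybridising _x_at kind and the second of the _s_at kind. CXCL8 therefore had no value in the fit without these kinds.

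CXCL3 had 8.39 and 8.54 with LPS, against 7.47 and 7.43 untreated, and rose by 1.02 (interval 0.82 to 1.22, limma adjusted p = 0.0246). The CXCL3 call was lost when any 1 array was left out (adjusted p = 0.0504 to 0.313). CXCL2 had 7.88 and 8.06 with LPS, against 7.05 and 6.71 untreated, a difference of 1.09 that did not pass (limma adjusted p = 0.178). It passed when variances were moderated over genes only (limma adjusted p = 0.0184), after median centring (0.0485), with a gene's probe sets averaged (0.0361) and without untreated replicate 1 (0.0233). Its other probe sets differed by 0.05 and -0.15. CXCL1, CXCL2 and CXCL3 are close copies of each other, so their probe sets, that of CXCL2 of the cross-hybridising _x_at kind among them, may share signal.

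The stretch of DNA before the CCL20 start is shown because these chemokines moved together and NF-kB is known to act there. The 250 bases upstream of the annotated start lie at chr2:227813592-227813841 on the plus strand (GRCh38.p14, RefSeq). Capitals mark a 12-base run of the kappa B kind, the DNA element that NF-kB binds, and a TATA box. For CXCL1 (chr4:73869303-73869335, plus strand), CXCL8 (chr4:73740466-73740498, plus), CXCL3 (chr4:74038747-74038779, minus) and CXCL2 (chr4:74099252-74099284, minus) a window of 33 bases is given, with capitals on 1 match to GGAANNNCC.
CCL20: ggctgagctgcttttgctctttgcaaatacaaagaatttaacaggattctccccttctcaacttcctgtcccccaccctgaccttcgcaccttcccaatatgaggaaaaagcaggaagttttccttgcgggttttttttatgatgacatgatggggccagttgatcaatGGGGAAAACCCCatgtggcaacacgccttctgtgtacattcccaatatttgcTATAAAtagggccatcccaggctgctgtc
CXCL1: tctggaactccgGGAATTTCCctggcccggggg
CXCL8: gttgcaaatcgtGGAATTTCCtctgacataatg
CXCL3: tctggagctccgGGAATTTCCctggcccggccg
CXCL2: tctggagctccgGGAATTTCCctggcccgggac

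These letters were chosen after reading the sequences and were searched on both strands of the 250 upstream bases of 35116 RefSeq promoters. The CCL20 run GGGGAAAACCCC begins 81 bases before the start and was found in 4 promoters (0.0114%), CCL20 included. GGAANNNCC, which lies inside that run, was found in 17.1% of promoters and in those of 13 of 31 chemokine ligand genes in the table. It begins 79 bases before the start in CCL20, 78 in CXCL1 and CXCL3, 77 in CXCL2 and 91 in CXCL8. CXCL1, CXCL2 and CXCL3 each hold a second match on the opposite strand, 53 bases before the start and outside the printed windows. The exact form GGAATTTCC is in the 4 CXC genes and not in CCL20. It was found in 0.413% of promoters and in those of 8 of 31 chemokine ligand genes. TATAAA begins 29 bases before the CCL20 start and 31 before that of CXCL8, and is not in these windows of CXCL1, CXCL2 and CXCL3. It is in 10.7% of promoters and in those of 14 of 31 chemokine ligand genes. AGGAAGT, the core bound by ETS factors, occurs in CCL20 at 190 and 138 bases before the start and in CXCL8 at 148. It is in 7.01% of promoters and in those of 9 of 31 chemokine ligand genes. A match describes the letters only.

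The other CC chemokines, the class to which CCL20 itself belongs, stayed near 0. Among 25 probe sets of 19 other CC genes the log2 differences ran from -0.12 to 0.22 with a median of 0.03. Of these, 6 probe sets had both LPS arrays above both untreated arrays and 3 had both below, where 19.5% and 21.1% of all probe sets did. CCL25, which attracts thymocytes and gut-homing T cells, stood highest at 6.33 and 6.44 with LPS, against 6.19 and 6.15 untreated. CCL28, another mucosal epithelial chemokine, had 8.27 and 8.34 with LPS, against 8.52 and 8.27 untreated on the brightest of its probe sets, and these values overlapped (difference -0.09, interval -0.33 to 0.15, limma adjusted p = 0.763). CCL2, the monocyte attractant, differed by 0.17 at a faint level.

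Over the whole family, 42 ligands other than CCL20 were listed, 37 had a probe set of their own and 23 passed the level filter. In limma 3 of the 37 passed the threshold upward and 0 downward, with or without the level filter, the 3 being CXCL1, CXCL8 and CXCL3. Of the 23 past the filter the unadjusted p was under 0.05 for 6 higher and 0 lower. Among all filtered genes other than CCL20 these shares were 3.72% and 7.91%. The median log2 difference of the 37 ligands was 0.07, beside 0.0005 over all 19775 genes. Both LPS arrays lay above both untreated arrays for 15 of the 37 (40.5%), where 20.3% of all genes did, and below them for 3 (8.11%), where 23.3% did. Apart from CXCL1, CXCL2, CXCL3 and CXCL8, 47 probe sets of 33 ligand genes spanned -0.28 to 0.33. The upper end was CXCL9, an interferon-induced T cell attractant, with 7.07 and 7.19 on the LPS arrays, against 6.78 and 6.83 on the untreated arrays (limma adjusted p = 0.32).

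**Figure D4:**
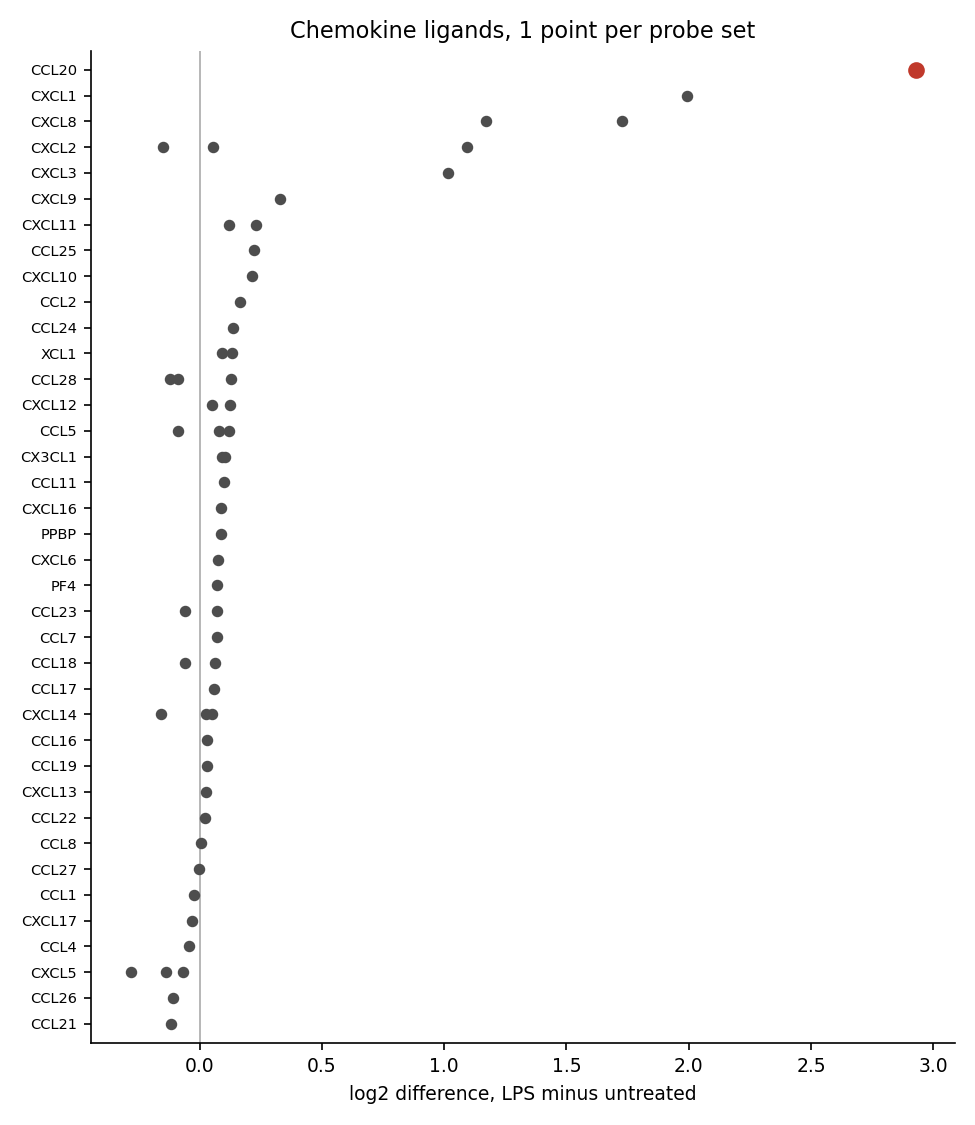
Log2 difference, LPS minus untreated (x axis), of each probe set of the chemokine ligand genes (y axis, ordered by their highest probe set). CCL20 (red) stands at 2.93, followed by CXCL1 at 1.99, the 2 probe sets of CXCL8 at 1.73 and 1.17, CXCL2 at 1.09 and CXCL3 at 1.02, and the remaining genes lie between -0.28 and 0.33.

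Likeness to CCL20 over the 4 arrays was measured as the root mean square difference between log2 profiles, each centred on its own mean. The 5 nearest genes were CXCL1 (0.469, Pearson r = 1.00), CXCL8 (0.604, r = 1.00), CXCL2 (0.929, r = 0.97), CXCL3 (0.962, r = 0.99) and ICAM1 (1.07, r = 0.92). ICAM1, a leukocyte adhesion molecule, came in through 1 of its 3 probe sets, which stood at 6.57 and 6.88 with LPS, against 5.71 and 6.06 untreated. Its other probe sets differed by 0.18 and 0.08. A correlation over 4 arrays in 2 groups separates genes poorly, since 911 of 30653 probe sets past the filter had r of at least 0.95 with CCL20. The CCL20 profile is mostly its LPS step, so the distance largely sorts genes by the size of their LPS difference. For the 5 genes these differences were, in the same order, 1.99, 1.73, 1.09, 1.02 and 0.84. The distance is thus no separate support for a shared response.

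The receptor of CCL20 gave only faint signal. CCR6 had 5.34 and 5.43 on the LPS arrays, against 5.53 and 5.36 on the untreated arrays, and the groups overlapped (difference -0.06, interval -0.27 to 0.16). Of 23 listed chemokine receptors 21 had a probe set, and in limma 0 passed in either direction, while among the 13 past the filter the unadjusted p was under 0.05 for 1 higher and 2 lower genes. ACKR2, a decoy receptor that clears inflammatory CC chemokines, differed by 0.35 (interval 0.09 to 0.61, limma adjusted p = 0.348). ACKR4, a scavenger of CCL19 and CCL21, differed by -0.31 (interval -0.55 to -0.06, limma adjusted p = 0.362).

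Some beta-defensins, antimicrobial peptides of epithelia, are also ligands of CCR6. DEFB1, which is made without stimulation in many epithelia, had 7.80 and 7.83 with LPS, against 7.76 and 7.80 untreated, a difference of 0.04 (interval -0.14 to 0.21). The inducible DEFB4A had no probe set of its own to report. Of 17 listed beta-defensin genes 12 had a probe set, their median difference was 0.05, and 0 passed in limma in either direction. Only 5 were past the filter, with an unadjusted p under 0.05 for 1 higher, DEFB119 at 0.23, and 0 lower.

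Proteins that sense bacterial products were compared because they stand upstream of CCL20. TLR4, the LPS receptor, had 7.81 and 7.82 with LPS, against 7.87 and 7.63 untreated (difference 0.06, interval -0.17 to 0.29). That probe set is of the cross-hybridising _x_at kind. TLR4 differed by -0.0025 without the _x_at and _s_at kinds and by 0.14 with its probe sets averaged. LY96, its co-receptor MD-2, lay at 3.91 and 3.92 with LPS, against 3.93 and 3.92 untreated, near the lowest values of the arrays, and CD14, which hands LPS to them, at 5.38 and 5.64, against 5.68 and 5.46. TLR2, the receptor of bacterial lipoproteins, differed by 0.15 (interval -0.04 to 0.35) and TLR5, the flagellin receptor, by -0.02 (interval -0.25 to 0.21). Of the 31 listed genes 28 had a probe set, and in limma 0 passed. Past the filter were 23, with an unadjusted p under 0.05 for 1 higher and 1 lower. The higher was the RNA sensor TLR8 at 0.29. The lower was CASP4, a caspase that binds LPS inside the cell, at -0.25. The median difference of the 28 was 0.02, the highest was 0.29 and the lowest -0.25.

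Cytokines that are known to raise CCL20 in epithelia, and their receptors, did not pass either. Of 32 listed genes all had a probe set, the median difference was 0.03, and in limma 0 passed. Past the filter were 28, with an unadjusted p under 0.05 for 3 higher and 1 lower. LTB, a lymphotoxin subunit, had 7.95 and 7.87 with LPS, against 7.44 and 7.51 untreated (difference 0.43, interval 0.25 to 0.62, limma adjusted p = 0.257). These groups did not overlap, and 20.3% of all genes had both LPS arrays above both untreated arrays. The other LTB probe set had 7.32 and 7.11, against 7.04 and 7.16, a difference of 0.12 with overlap. TNFSF14, a related ligand of the lymphotoxin receptor, differed by 0.26 (interval 0.09 to 0.44, limma adjusted p = 0.332). IL1R1, the interleukin 1 receptor, lay at 5.66 and 5.62 with LPS, against 5.55 and 5.57 untreated, and TNFRSF1A, a receptor of tumour necrosis factor, at 10.29 and 10.42, against 10.26 and 10.27.

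Among factors known to act on the CCL20 promoter, RELB had the highest log2 difference when each gene was represented by its brightest probe set. None of the factors passed the threshold. Other probe sets gave 0.49 for NFKB2, 0.46 for JUND and -0.39 for FOSL2, whose brightest ones differed by 0.24, -0.01 and -0.03. RELB, an NF-kB subunit, had 7.54 and 7.70 with LPS, against 6.96 and 7.15 untreated (difference 0.57, interval 0.33 to 0.81, limma adjusted p = 0.257). NFKBIA, the inhibitor that is itself an NF-kB target, had 10.94 and 10.95 with LPS, against 10.38 and 10.52 untreated (difference 0.49, interval 0.33 to 0.66, limma adjusted p = 0.253), while its other probe set differed by -0.0058. NFKB1, the p50 precursor, differed by 0.28 (interval 0.11 to 0.45) and NFKBIZ, a nuclear NF-kB cofactor, by 0.22 (interval -0.01 to 0.44). RELA, the main activating subunit, differed by 0.02 (interval -0.15 to 0.18). ELF3, an epithelial ETS factor, differed by 0.06 on the probe set with the highest mean, while the other 2 gave -0.13 and -0.09. Of 29 listed factors 28 had a probe set and 0 passed in limma, with an unadjusted p under 0.05 for 5 higher and 3 lower and a median difference of 0.02.

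Chemokine messages carry AU-rich elements that mark them for decay, and regulators of such decay were listed for that reason. ZFP36, which promotes the decay, had 10.09 and 10.02 with LPS, against 10.00 and 10.01 untreated (difference 0.05, interval -0.11 to 0.22). ELAVL1, a stabilising RNA-binding protein, differed by 0.02 (interval -0.09 to 0.13). Of 20 listed genes 18 had a probe set, and in limma 0 passed in either direction, with a median difference of -0.09. Past the filter were 17, with an unadjusted p under 0.05 for 0 higher and 4 lower. AUH, an AU-binding enzyme of leucine breakdown, differed by -0.39 (limma adjusted p = 0.324) and XRN1, a 5′ to 3′ exonuclease, by -0.26 (limma adjusted p = 0.332).

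**Figure D5:**
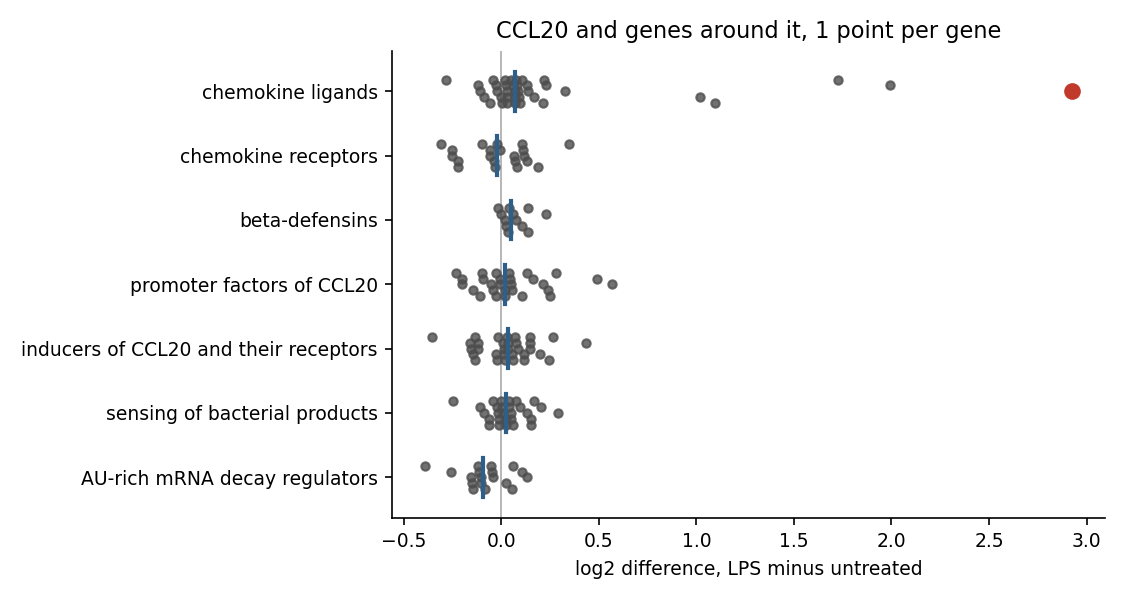
Log2 difference, LPS minus untreated (x axis), of each gene with a probe set in 7 lists around CCL20 (y axis), with a blue line at the list median. Vertical scatter within a list has no meaning. CCL20 (red) stands at 2.93, 4 other chemokine ligands lie at 1.02 to 1.99, and every gene of the other 6 lists lies between -0.39 and 0.57.

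The genes beside CCL20 on its chromosome, in the order of the RefSeq table, differed little. SLC19A3, a thiamine transporter and the nearest on the side before it, had 4.93 and 5.00 with LPS, against 4.95 and 4.96 untreated. DAW1, an assembly factor of ciliary dynein and the nearest on the side after it, had 5.64 and 5.61, against 5.29 and 5.51. This was a difference of 0.22 at a faint level, without overlap, as 20.3% of all genes had in this direction. The second neighbours, AGFG1 and SPHKAP, differed by 0.02 and 0.12.

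The 21 epithelial genes with a probe set had a median level of 11.31 with LPS and 11.41 untreated. Markers of other cell types differed little between the groups. EPCAM, an epithelial adhesion molecule, lay at 13.85 and 13.81 with LPS, against 13.76 and 13.91 untreated, and KRT18 at 14.65 and 14.63, against 14.62 and 14.59. PTPRC, which marks all leukocytes, stayed at or below 5.56 on each of its 5 probe sets, but other genes of the leukocyte list were brighter. On its brightest probe set LYZ lay at 12.60 and 12.59 with LPS, against 12.70 and 12.79 untreated. CD53 lay likewise at 8.56 and 8.87, against 8.39 and 8.38. Over 20 leukocyte genes with a probe set, the summed log2 level was 144.5 and 144.2 with LPS, against 142.8 and 144.1 untreated. In limma 0 of 20 passed, and the median difference was 0.01. The filter left 16 of them, with an unadjusted p under 0.05 for 1 higher, CD53 at 0.33, and 1 lower, LYZ at -0.15. Over 17 fibroblast and endothelial genes the summed log2 level was 123.5 and 122.9, against 121.5 and 122.8, with 0 passing. The filter left 15, with an unadjusted p under 0.05 for 1 higher, VIM at 0.24, and 0 lower. Over 21 epithelial genes the summed log2 level was 231.8 and 232.1, against 231.4 and 231.9, with 0 passing. The filter left 20, with an unadjusted p under 0.05 for 1 higher, CDX2 at 0.23, and 1 lower, GATA6 at -0.22. The part of these small differences in the CCL20 result was not tested.

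Pairs of arrays correlated at r = 0.996 to 0.998 across probe sets, which are not independent replicates. Poly-A spike-ins, bacterial transcripts added before labelling, averaged 7.98 and 7.92 on the LPS arrays, against 8.60 and 8.25 on the untreated arrays, a difference of -0.48. Hybridisation spike-ins, added after labelling, averaged 9.89 and 10.19, against 10.29 and 10.10, a difference of -0.15. The part of either difference in the CCL20 result was not tested. All p-values measure the spread between these 4 arrays, which may be technical in part.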

How the data were processed

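Total RNA of MKN45 cells (2 LPS and 2 untreated samples) was measured on Affymetrix arrays. The deposited values cover 54675 probe sets and are log2 levels, which follows from their range and their nearly equal distributions on the 4 arrays (at equal rank the largest difference was 0.0977). MAS5 and RMA were used per the submitters' processing notes; versions, and which of them made these values, are not given in the sources used here. Values scaled like this cannot show a change common to most transcripts.

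Control probe sets (62) were left out. Gene names came from the platform annotation (41091 probe sets with 1 symbol, 1801 with several, 11721 with none), of which 41037 matched the RefSeq table of GRCh38.p14 by Entrez identifier, with 0 symbols changed. Probe sets under the 30 percentile of mean level (6.06) were not tested, and 38229 remained. The comparison used limma 3.58.1 in R 4.3.3 (lmFit, eBayes with trend over all probe sets kept, two-sided). Each gene was represented by its probe set with the highest mean, and p-values were adjusted by Benjamini-Hochberg over 16252 genes, CCL20 included. Intervals are 95% intervals of that fit, or of the fit with no level filter for genes under the filter. The procedure was tested on simulated data. Figures were drawn with matplotlib 3.10.9.

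CCL20, the gene lists and the lists' always-named genes were chosen with earlier results of these data known. Named genes were a fixed set around CCL20, in each list the members past the threshold (up to 4) or else the 2 with the smallest p, chemokine ligands that differed by 0.3 or more, the 5 genes nearest in profile and 2 genome neighbours on each side. Genes named outside this rule (HOPX, CCL25, CCL2, CXCL16 in a figure, CD14, NFKB2, JUND, FOSL2, EPCAM, KRT18, KRT20 and PTPRC) were chosen after their values were seen. The fit was repeated unfiltered and with the filter at the 50 percentile, after cyclic loess, median centring or quantile normalization, with robust or untrended eBayes, with a replicate block, with probe sets of a gene averaged, with _x_at and _s_at types removed, without each array, and, added after seeing the data, variances moderated over genes only.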

Additional observations from a re-analysis of the deposited data

How the results depend on the processing

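The CCL20 difference was 2.91 to 2.93 under quantile normalization, median centring, cyclic loess and every change of filter, variance model or probe set rule, and 2.84 to 3.01 with 1 array left out. CCL20 was left out of all counts of limma calls but stayed in the adjustment of p-values. The 3 genes called higher became 2 to 4 and the 0 called lower became 2 with the replicate block, 1 with a gene's probe sets averaged, 1 without _x_at and _s_at probe sets, 5 with variances moderated over genes only and 0 to 1 with 1 array left out. The replicate block is no pairing given by the labels: deviations of same-numbered arrays correlated at 0.154 over 54613 probe sets with only 2 pairs, and the block gave 4 higher and 2 lower, with 3 chemokine ligands higher. Chemokine ligands called higher were 3, and 2 to 4 in the alternatives. Genes past 1.5-fold were 5 higher and 5 lower, with 3 lower at the 50 percentile filter, 8 lower after median centring, 3 higher and 8 lower without _x_at and _s_at probe sets, and 5 to 9 higher and 6 to 23 lower with 1 array left out. Without _x_at and _s_at probe sets, CXCL8 and CXCL2 had no probe set left past the filter and dropped out of the counts of higher genes. The cause of the other moves was not tested.

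Of 555 refitted values of 38 named genes, 533 kept their direction and side of the threshold, 4 lost a call (CXCL3 with 1 array left out), 4 gained one (CXCL2) and 14 changed sign, none of them called. These were, without _x_at and _s_at probe sets, NFKBIA at -0.0058, ELF3 at -0.13, TLR4 at -0.0025 and AGFG1 at -0.0124; with the mean of probe sets, ELF3 at -0.0527 and AGFG1 at -0.0003; and, with 1 array left out, RELA at -0.0455 to 0.0798, TLR5 at -0.1241 to 0.0854, CCL28 at -0.2153 to 0.0396, TLR4 at -0.0589 to 0.1816, ELAVL1 at -0.01 to 0.0551 and AGFG1 at -0.0004 to 0.0326. Faint signal limits the untreated value of CCL20, as described beside it.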
